A study of Mus musculus with 3 samples.

Results

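The 6 osteogenic transcription factors described here, Runx2, Sp7, Dlx3, Dlx5, Atf4 and Msx2, were taken by symbol from a table of 32285 genes counted in single sorted cells. All 6 were listed once and all 6 passed the filter on low counts. They were measured in bone-lining cells (BLCs) of wild-type (WT) mice, here the cells that collagenase freed from pieces of femur, tibia and iliac bone once the marrow had been flushed out, although the labels give the tissue as bone marrow. Cells that carried Alcam but none of CD45, Ter119, CD31 and Sca-1 were sorted. The study used these libraries to look for mesenchymal stem cell subsets that support blood stem cells, and the question asked here was in which sorted cells the factors of bone formation were transcribed. There was 1 group of 3 droplet libraries (replicates 1, 2 and 3) and no other genotype or treatment. The labels gave no batch, sex, age or animal for a library, so each p-value below measures the spread between these libraries only, and that spread may be technical.

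Bone-forming cells arise from mesenchymal progenitors under a layered set of regulators. Runx2, a runt-domain factor, is needed for any osteoblast to form and also acts in cartilage cells as they enlarge, and Sp7 (osterix), a zinc finger protein, acts after it. The distal-less homeobox proteins Dlx3 and Dlx5 and the muscle segment homeobox protein Msx2 respond to bone morphogenetic proteins and bind the same kind of AT-rich sites. Atf4, a leucine zipper protein of the amino acid and stress response, lets mature osteoblasts make collagen and is controlled largely through translation of its mRNA.

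The 3 libraries held 2606, 7172 and 10529 barcodes with 20985636, 79905165 and 69890252 UMIs (unique molecular identifiers, 1 per captured mRNA), of which 18232 cells were kept. Replicate 1 stood apart. CAR-like cells (Cxcl12-abundant reticular) made up 25.3% of its cells against 1.40% and 1.18% in replicates 2 and 3, and haematopoietic cells, which the sort should have removed, 23.1% against 3.30% and 3.73%. Pairs of libraries shared 5, 9 and 28 cell barcodes. Cells were grouped without the 6 factors and the regulators listed below (52 genes in all), but with the matrix genes and Atf4 targets, and 3 populations were compared in each library. Levels are given as CPM, a gene's UMIs scaled to the total UMIs of the same cells, and compare populations rather than genes.

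The bone-forming cells were the 1 osteoblast-like cluster, with 32, 390 and 533 cells in replicates 1, 2 and 3. They carried Bglap (osteocalcin) at 13371, 34840 and 34675 CPM, Dmp1 at 544, 433 and 429 CPM and Ifitm5 at 205, 379 and 383 CPM. Phex averaged 288 ± 247 CPM (SD over libraries), while Sost and Mepe were at 5.48 CPM or less. All 6 genes were among the markers that named the cluster, and whether it held osteocytes was not tested. Ptprc, which encodes CD45, had no UMI in them, which allows up to 21.2, 2.10 and 2.74 CPM (3 counts). In replicate 1 these cells also held Ibsp at 17771 CPM, against 2317 and 3262 CPM in the other libraries. Alcam, the marker of the sort, was at 148, 56.1 and 37.5 CPM in bone-forming cells. These cells were shallow, with medians of 3488, 2400.5 and 1527 UMIs against 5614, 9704 and 5814 for all cells of the same libraries, and 177 of the 955 had fewer than 1000 UMIs. The Ibsp-high chondrocytes were the cartilage cluster richest in Ibsp (bone sialoprotein), with 117, 931 and 1458 cells, Ibsp at 34673, 28395 and 27438 CPM and Col2a1, the main cartilage collagen, at 4216, 17334 and 18142 CPM. Replicate 1 differed here too, with Col1a1 at 6152 CPM against 1831 and 1457 CPM in the other libraries. Their Alcam mRNA was at or near 0 (0, 3.94 and 5.54 CPM). Their Col10a1, the collagen of enlarged cartilage cells, was at 258, 378 and 250 CPM. All remaining cells, 2327, 5042 and 7402, are called other gated cells.

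Dlx3, Dlx5 and Msx2 share a DNA-binding homeobox, and their most similar coding stretch is shown because their levels below differ widely. Each stretch was placed by likeness alone, so its ends need not be those of the homeobox. The stretches are the 180 coding bases with the most bases identical in all 3 transcripts (GENCODE vM21, build GRCm38), printed 5′ to 3′ with those shared bases in capitals. The stretch covers coding bases 370 to 549 of Dlx3, 394 to 573 of Dlx5 and 409 to 588 of Msx2.
Dlx3: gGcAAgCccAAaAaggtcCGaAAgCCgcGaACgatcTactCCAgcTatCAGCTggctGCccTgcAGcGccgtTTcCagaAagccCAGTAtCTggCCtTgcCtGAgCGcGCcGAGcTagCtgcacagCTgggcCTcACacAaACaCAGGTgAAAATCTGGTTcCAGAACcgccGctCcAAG
Dlx5: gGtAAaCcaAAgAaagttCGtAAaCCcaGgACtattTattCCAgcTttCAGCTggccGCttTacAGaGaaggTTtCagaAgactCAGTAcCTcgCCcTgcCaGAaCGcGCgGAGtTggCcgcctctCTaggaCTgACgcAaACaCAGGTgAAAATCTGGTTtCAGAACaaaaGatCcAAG
Msx2: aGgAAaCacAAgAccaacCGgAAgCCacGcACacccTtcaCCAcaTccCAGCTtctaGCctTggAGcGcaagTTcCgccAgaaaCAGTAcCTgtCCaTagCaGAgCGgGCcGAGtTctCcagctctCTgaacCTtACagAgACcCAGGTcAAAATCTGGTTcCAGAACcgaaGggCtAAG
Dlx3 and Dlx5 matched at 130 of 180 bases (72.2%), Dlx3 and Msx2 at 114 (63.3%), and Dlx5 and Msx2 at 111 (61.7%). The longest run of bases found in both coding sequences was 23 for Dlx3 and Dlx5, 20 for Dlx3 and Msx2 and 11 for Dlx5 and Msx2.

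Dlx3 lies on chromosome 11 (build GRCm38, 95120119 to 95125296, plus strand), Dlx5 on chromosome 6 (6877805 to 6882085, minus strand) and Msx2 on chromosome 13 (53466884 to 53473074, minus strand). Sp7 lies on chromosome 15 (102356606 to 102367182, minus strand), where Atf4 also lies (80255184 to 80257541, plus strand). Runx2 on chromosome 17 (44495987 to 44814797, minus strand) spans 319 kb, and 4 genes on its other strand overlap it, 3 antisense RNAs and Supt3. The other 5 members overlap no annotated gene.

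Of the targets, Bglap is shown because it led the genes of the bone-forming cluster and because Runx2 is known to act on its promoter. The 250 bases before its start (RefSeq, GRCm38.p6, chr3:88384467-88384716, minus strand) are printed 5′ to 3′, with capitals for the runt-domain letters TGTGGT searched on both strands (ACCACA on the other).
Bglap: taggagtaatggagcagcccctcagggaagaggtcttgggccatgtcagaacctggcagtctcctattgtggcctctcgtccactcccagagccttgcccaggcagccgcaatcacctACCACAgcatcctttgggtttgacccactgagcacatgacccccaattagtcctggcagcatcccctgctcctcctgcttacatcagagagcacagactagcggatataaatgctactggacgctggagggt
There was 1 match, 132 bases before the start. The letters occur in 14.0% of 32851 such windows, so the match only describes the window, and binding was not measured here. Of the members, 3 had a window in the table used, with 1 match in that of Runx2 and no match in those of Atf4 and Msx2.

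Between bone-forming cells and Ibsp-high chondrocytes, 3 of the 6 factors were higher in the bone-forming cells and none was lower (edgeR quasi-likelihood test with Benjamini-Hochberg adjustment over 15072 genes, libraries as a block). Over all genes tested, 36.0% were called, 13.3% higher and 22.7% lower. Between bone-forming and other gated cells, 4 of the 6 were higher and none lower, with 14.5% and 27.8% over all genes (42.3% in either direction). Between Ibsp-high chondrocytes and other gated cells, 1 was higher and 2 were lower, with 10.9% and 13.9% over all genes (24.8% in either direction). The last 2 comparisons share the other gated cells as their reference, and all 3 share libraries. The populations were themselves found from other genes of the same cells. The median fitted log2 change of all genes was −0.30, −0.38 and −0.01 in the 3 comparisons, and −0.17, −0.22 and 0.01 with another scaling (RLE size factors).

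**Figure D1:**
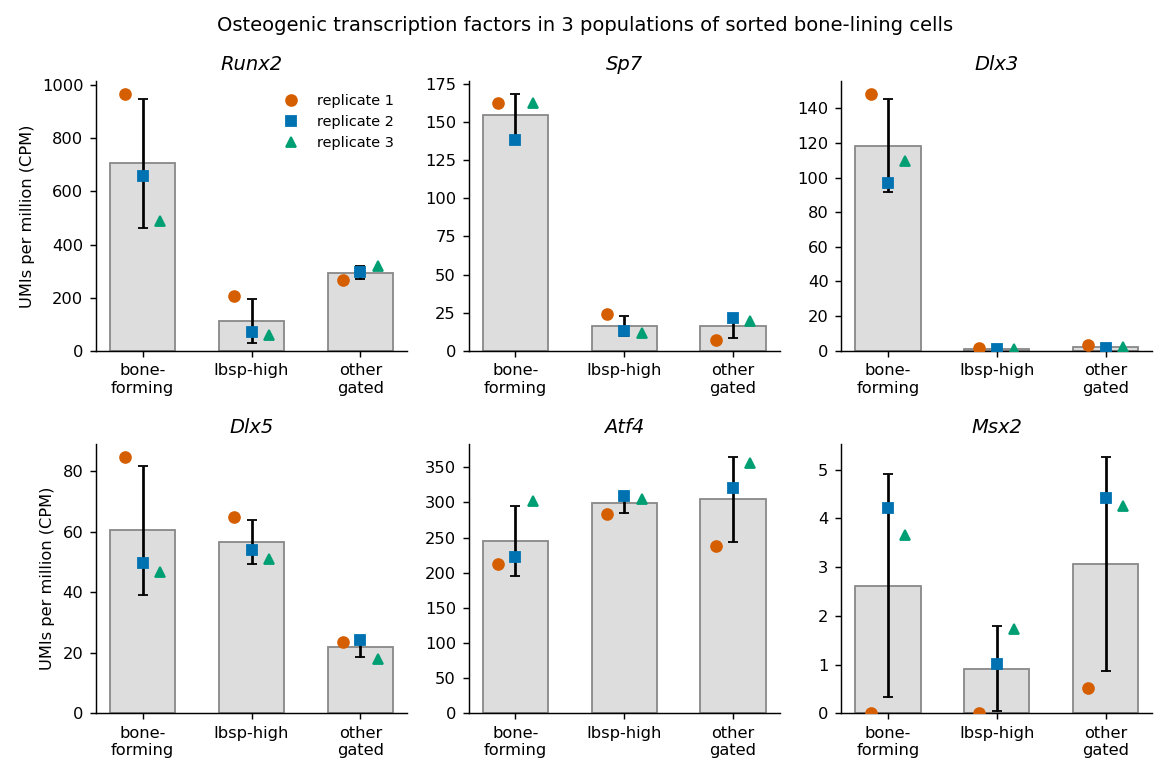
Level of each factor (CPM, vertical axes starting at 0) in the 3 populations. Points are libraries, bars are means and lines are SD over 3 libraries. Runx2, Sp7 and Dlx3 in bone-forming cells lie above both other populations in every library, with Dlx3 between 96.7 and 148 CPM against at most 3.23 CPM elsewhere, whereas Dlx5 in bone-forming cells overlaps Ibsp-high chondrocytes.

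Runx2, the runt-domain factor at the head of the osteoblast programme, was at 968, 660 and 489 CPM in the bone-forming cells of replicates 1, 2 and 3. In Ibsp-high chondrocytes it was at 206, 71.7 and 57.4 CPM, and in other gated cells at 268, 297 and 317 CPM. The bone-forming cells were the highest and the Ibsp-high chondrocytes the lowest in every library, with no overlap. The fitted level was 6.27-fold higher in bone-forming cells than in Ibsp-high chondrocytes (log2 2.65 ± 0.35, SE, n = 3, edgeR adjusted p = 3.03e-04). Against other gated cells it was 2.27-fold higher (log2 1.18 ± 0.33, n = 3, edgeR adjusted p = 0.0153), a call lost without replicate 2 (log2 1.29, adjusted p = 0.0578), with no doublets removed (log2 1.00, adjusted p = 0.0666) and at a finer resolution of clustering (log2 0.80, adjusted p = 0.0631). Ibsp-high chondrocytes were lower than other gated cells (log2 −1.47 ± 0.34, n = 3, edgeR adjusted p = 0.0110), and this call was lost without replicate 2 (log2 −1.23, adjusted p = 0.157), without replicate 3 (log2 −0.99, adjusted p = 0.238), without the cell filter (log2 −0.99, adjusted p = 0.0603) and without the library block (log2 −1.33, adjusted p = 0.0537).

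The Runx2 values depended on the reference cells. Against mesenchymal cells that were not cartilage, bone-forming cells were higher by log2 2.41 (edgeR adjusted p = 7.67e-05), and the difference of Ibsp-high chondrocytes from that reference was log2 −0.36 (adjusted p = 0.516). Across 17 populations with at least 10 cells in at least 2 libraries, Runx2 averaged 705 ± 243 CPM (SD, n = 3) in bone-forming cells, 687 ± 316 CPM (n = 3) in the Lef1-rich chondrocyte cluster and 655 ± 143 CPM (n = 3) in CAR-like cells, the marrow reticular cells that make Cxcl12. These 3 populations overlapped each other. The Matn3-rich chondrocytes followed at 469 ± 91.6 CPM (n = 2) and tendon-like cells at 465 ± 201 CPM (n = 3). The Omd-rich chondrocytes, which lay next to the Ibsp-high cluster and carried Ibsp at 17647 CPM, held 42.7 ± 2.36 CPM (n = 3), and the unnamed Cilp- and Msmp-rich cluster 8.90 ± 1.91 CPM (n = 3). Of all Runx2 UMIs of a library, bone-forming cells held 2.52%, 4.71% and 3.13%.

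Runx2 counts varied inside the bone-forming population. In replicate 2, 1 cell held 78 of the 941 UMIs, and the level was 182 CPM in cells under 1000 UMIs, 343 CPM in cells from 1000 to under 3000 UMIs and 785 CPM in deeper cells. In replicate 3 the same classes gave 409, 554 and 428 CPM, without that order. Leaving out the cells under 1000 UMIs left the fitted differences at log2 2.66 and 1.19. RNAs that stay in the nucleus (Malat1, Neat1, Meg3 and Kcnq1ot1) made up 4.64%, 3.32% and 3.54% of UMIs in bone-forming cells against 3.07%, 2.71% and 2.59% in Ibsp-high chondrocytes, and long genes were called more often: 22.5% of 2151 genes of 100 kb or more were higher in bone-forming cells, compared with 11.8% of 9130 genes of 10 to 100 kb and 11.5% of 3781 shorter genes. The part of nuclear RNA, gene length or the overlapping antisense genes in the Runx2 values was not tested.

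Sp7, the zinc finger factor that acts after Runx2, was at 162, 138 and 163 CPM in bone-forming cells. Ibsp-high chondrocytes held 23.8, 12.7 and 11.9 CPM, and other gated cells 7.30, 21.5 and 19.5 CPM. The bone-forming cells were far above both and did not overlap them, while the other 2 populations overlapped each other. The fitted level in bone-forming cells was 9.84-fold that of Ibsp-high chondrocytes (log2 3.30 ± 0.43, n = 3, edgeR adjusted p = 2.76e-04) and 9.77-fold that of other gated cells (log2 3.29 ± 0.38, n = 3, edgeR adjusted p = 1.37e-04), and both calls were made under all 16 alternatives. Between Ibsp-high chondrocytes and other gated cells the fitted difference was log2 −0.01 ± 0.38 (n = 3, edgeR adjusted p = 0.988, interval of 2 SE from −0.77 to 0.75), and without replicate 1 it was −0.55 (adjusted p = 3.18e-04). Against mesenchymal cells that were not cartilage, Ibsp-high chondrocytes had more Sp7 (log2 1.55, edgeR adjusted p = 0.00362).

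Sp7 averaged 154 ± 14.1 CPM (SD, n = 3) in bone-forming cells. Next in the order came the Matn3-rich chondrocytes at 37.3 ± 1.55 CPM (n = 2), which also did not overlap their neighbours, then the dividing chondrocytes at 22.5 ± 5.02 CPM (n = 2) and CAR-like cells at 21.2 ± 2.41 CPM (n = 3). Populations of blood origin held at most 2.31 CPM on average. Bone-forming cells accounted for 12.7%, 11.98% and 14.0% of all Sp7 UMIs.

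Dlx3, a distal-less homeobox factor expressed in osteoblasts and also in skin, hair and placenta, had the largest fitted differences of the 6. It was at 148, 96.7 and 110 CPM there (21, 138 and 120 UMIs). In Ibsp-high chondrocytes it was at 1.32, 1.12 and 0.924 CPM (1, 10 and 8 UMIs), and in other gated cells at 3.23, 1.65 and 2.21 CPM. No library overlapped. The fitted differences were log2 6.48 ± 0.28 (89.1-fold, n = 3, edgeR adjusted p = 1.21e-06) against Ibsp-high chondrocytes and log2 5.73 ± 0.22 (53.1-fold, n = 3, edgeR adjusted p = 7.01e-07) against other gated cells, and they were called under all 16 alternatives. The size of the first fold rests on 1, 10 and 8 UMIs in the reference. Ibsp-high chondrocytes and other gated cells differed by log2 −0.75 ± 0.31 (n = 3, edgeR adjusted p = 0.100), below threshold although all 3 libraries were lower in the chondrocytes.

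Next in the order was the fibroblast-like cluster led by S100a4, Cdh13 and Col3a1, at 23.9 ± 0.96 CPM (n = 3), without overlap on either side, followed by the unnamed Cilp- and Msmp-rich cluster at 7.87, 3.88 and 3.996 CPM. The pericyte-like cluster, which had at least 10 cells in replicate 1 alone, held 42.0 CPM there (14 UMIs, exact Poisson interval 23.0 to 70.5 CPM). All cartilage clusters averaged at most 1.62 CPM. Bone-forming cells, 955 of 18232 cells, held 25.0%, 55.2% and 50% of all Dlx3 UMIs in the libraries. Within them Dlx3 was higher in the shallower cells: 295 CPM in cells from 1000 to under 3000 UMIs against 126 CPM in deeper cells of replicate 1, 137 against 78.3 CPM in replicate 2, and 127 against 77.2 CPM in replicate 3. The values of replicate 1 rest on 10 and 19 cells.

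Dlx5, the relative that in bone is induced early by bone morphogenetic proteins, showed another distribution. Bone-forming cells held 84.8, 49.8 and 46.6 CPM and Ibsp-high chondrocytes 64.8, 53.9 and 50.8 CPM, ranges that overlapped. Other gated cells held 23.7, 24.2 and 18.1 CPM, below both in every library. The difference between bone-forming cells and Ibsp-high chondrocytes was log2 −0.19 ± 0.20 (n = 3, edgeR adjusted p = 0.503), with an interval of 2 SE from −0.59 to 0.22. Dlx5 was higher than in other gated cells both in bone-forming cells (log2 1.38 ± 0.20, n = 3, edgeR adjusted p = 5.35e-04) and in Ibsp-high chondrocytes (log2 1.56 ± 0.18, n = 3, edgeR adjusted p = 2.42e-04), and both calls were made under all 16 alternatives.

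In the order over populations Dlx5 was highest in tendon-like cells at 93.1 ± 7.0 CPM (n = 3), which did not overlap the CAR-like cells below them at 68.7 ± 17.3 CPM (n = 3). Bone-forming cells (60.4 ± 21.2 CPM), Ibsp-high chondrocytes (56.5 ± 7.34 CPM) and the S100a4-rich fibroblast-like cells (50.9 ± 13.5 CPM, n = 3 each) followed and overlapped. The Lef1-rich chondrocytes, among the highest for Runx2, were the lowest cartilage cluster for Dlx5 at 11.96 ± 1.57 CPM (n = 3). Of the Dlx5 UMIs, 9.51%, 23.4% and 31.3% were in Ibsp-high chondrocytes and 2.33%, 3.47% and 3.62% in bone-forming cells.

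Msx2, a homeobox factor known as a target of bone morphogenetic protein signalling in skull and limb, was barely detected. Bone-forming cells held 0, 6 and 4 UMIs, or 0, 4.21 and 3.66 CPM, and the 0 in replicate 1 allows up to 21.2 CPM (3 counts, counting error only). Ibsp-high chondrocytes held 0, 1.01 and 1.73 CPM and other gated cells 0.521, 4.42 and 4.25 CPM. No population averaged more than 7.01 CPM. The difference between bone-forming cells and Ibsp-high chondrocytes (log2 1.39 ± 0.57, n = 3, edgeR adjusted p = 0.0813) missed the threshold and was called without replicate 1 (log2 1.54, adjusted p = 0.0438). Ibsp-high chondrocytes were called lower than other gated cells (log2 −1.47 ± 0.34, n = 3, edgeR adjusted p = 0.0119), a call made in this direction under 6 of 16 alternatives. It was lost without replicate 2 (adjusted p = 0.595), without replicate 3 (adjusted p = 0.270) and without the library block (adjusted p = 0.422), and turned to log2 1.13 (adjusted p = 0.00527) when all cells were clustered at resolution 0.5. In replicate 2, 5 of the 6 UMIs of the bone-forming cells were in 1 cell.

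Atf4, the stress-response factor, was spread over all populations. Bone-forming cells held 212, 222 and 303 CPM, Ibsp-high chondrocytes 283, 309 and 305 CPM and other gated cells 238, 320 and 356 CPM. All 3 ranges overlapped, though the bone-forming cells were the lowest within each library. The differences were log2 −0.46 ± 0.18 (n = 3, edgeR adjusted p = 0.0700) against Ibsp-high chondrocytes, close to the median of all genes in that comparison (−0.30), and −0.27 ± 0.18 (n = 3, edgeR adjusted p = 0.246) against other gated cells. The first was called under 6 of 16 alternatives, among them no cell filter (log2 −1.02, adjusted p = 0.00122). Average levels over the 17 populations ran only from 158 CPM in neutrophil-like cells to 442 CPM in a small shallow chondrocyte cluster, and every pair of neighbours in that order overlapped.

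**Figure D2:**
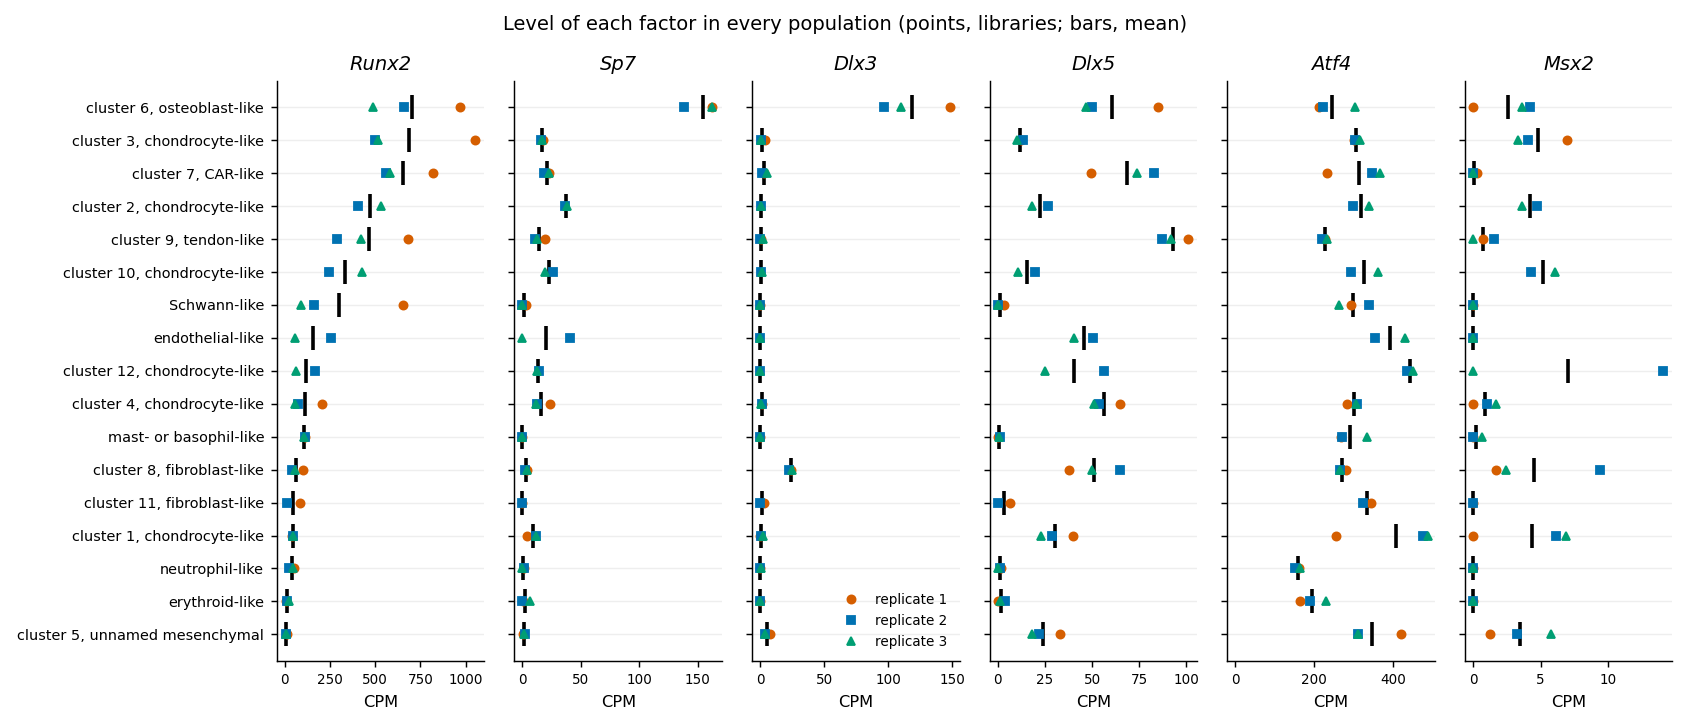
Level of each factor (CPM, horizontal axes) in the 17 populations, ordered by mean Runx2. Points are libraries with at least 10 cells and vertical bars are means. Sp7 and Dlx3 peak in the osteoblast-like cluster, Runx2 is as high in the Lef1-rich cluster 3 and the CAR-like cluster 7, Dlx5 peaks in the tendon-like cluster 9, and Atf4 stays between 158 and 442 CPM on average.

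**Figure D3:**
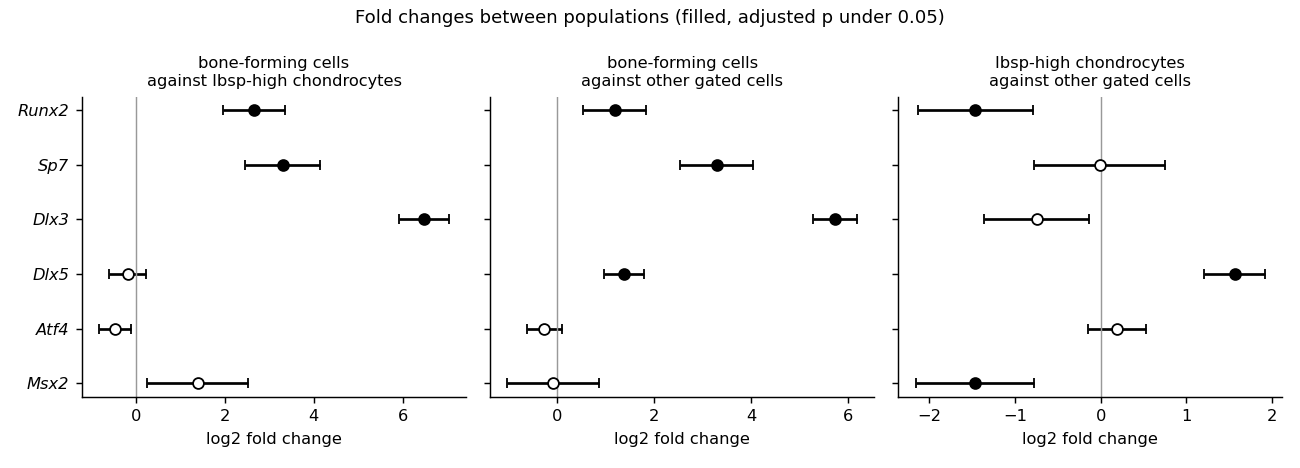
Fitted log2 fold change of each factor (horizontal axes, lines of 2 SE on either side) in the 3 comparisons. Filled points have an edgeR adjusted p under 0.05. Dlx3 has the largest difference in both comparisons of bone-forming cells, and Dlx5 is the 1 factor called higher in Ibsp-high chondrocytes than in other gated cells.

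The share of cells with at least 1 UMI depends on depth, so each cell was also thinned to 1000 UMIs, leaving out shallower cells (177 bone-forming cells, 23 Ibsp-high chondrocytes and 349 other gated cells). Runx2 was then found in 69.0%, 32.9% and 35.2% of bone-forming cells in replicates 1, 2 and 3, against 84.4%, 53.6% and 44.8% before thinning. The thinned share was 7.26 ± 2.79% (SD, n = 3) in Ibsp-high chondrocytes and 19.9 ± 0.683% in other gated cells. All haematopoietic cells gave 5.58 ± 2.47%. Shares of Ibsp-high chondrocytes (10.4%, 6.16% and 5.20%) overlapped those of haematopoietic cells (3.09%, 8.04% and 5.59%). The haematopoietic cells are no background for Runx2, since the mast- or basophil-like cells among them held 112, 109 and 104 CPM. The populations lowest in Runx2, the unnamed cluster at 10.8, 6.95 and 8.99 CPM and erythroid-like cells at 6.65, 9.61 and 24.8 CPM, lay below Ibsp-high chondrocytes (206, 71.7 and 57.4 CPM) in every library.

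Sp7 was found in 16.9 ± 3.31% of thinned bone-forming cells (n = 3 libraries), 1.04 ± 0.300% of Ibsp-high chondrocytes and 1.38 ± 0.606% of other gated cells. Dlx3 was found in 12.9 ± 3.79%, 0.0231 ± 0.0400% and 0.285 ± 0.0291%, and Dlx5 in 6.88 ± 3.14%, 4.15 ± 1.36% and 2.57 ± 0.615%. In haematopoietic cells at full depth, with medians of 9066, 16886 and 8314.5 UMIs, Sp7 was found in 0.466 ± 0.112%, Dlx3 in 0.0952 ± 0.165% and Dlx5 in 1.04 ± 1.18% of cells. Cartilage RNA was present outside cartilage, with Col2a1 at 798, 1523 and 2101 CPM in bone-forming cells and at 2.38, 982 and 1147 CPM in haematopoietic cells. Atf4 was found in 17.3 ± 6.54% of thinned bone-forming cells and in 16.8 ± 3.73% of haematopoietic cells, which use it too, and Msx2 in 0.165 ± 0.287% of the former.

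**Figure D4:**
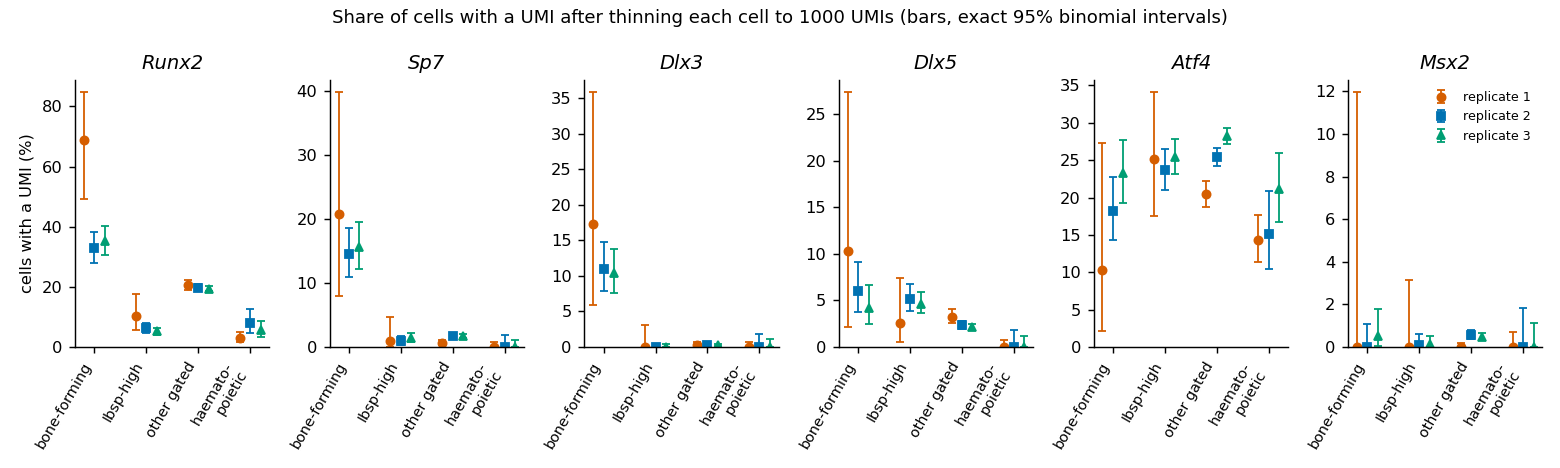
Share of cells with at least 1 UMI (percent) after thinning each cell to 1000 UMIs, per library in 4 populations, with exact 95% Clopper-Pearson intervals that cover counting error only. Sp7 and Dlx3 exceed 10% only in bone-forming cells, and Runx2 shares are 32.9% or more there against at most 20.7% in the other populations.

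At full depth at least 2 of the 6 factors were found in 24 of 32, 188 of 390 and 219 of 533 bone-forming cells (75%, 48.2% and 41.1%). The share was 41.0%, 47.3% and 31.7% in Ibsp-high chondrocytes and 35.1%, 59.2% and 44.6% in other gated cells, so that in replicates 2 and 3 it was higher in other gated cells, which were also deeper. In bone-forming cells exactly 4 of the 6 were found together in 7, 35 and 18 cells, and exactly 5 in 0, 6 and 5 cells. Runx2 and Sp7 were both seen in 13, 83 and 77 cells. Among cells with Sp7, 86.7%, 66.4% and 57.5% also had Runx2, compared with 82.4%, 47.5% and 40.6% of cells without Sp7, but cells with Sp7 were also deeper (medians of 3912, 4078 and 2336 UMIs against 2349, 1896 and 1367). Dlx3 and Dlx5 were seen together in 3, 19 and 11 cells. The part of depth in these overlaps was not tested.

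Over the 17 populations, Pearson correlations of log2(CPM + 10) between members ran from −0.18 for Dlx3 and Atf4 to 0.72 for Runx2 and Sp7, with 0.62 for Sp7 and Dlx3 and 0.25 for Runx2 and Dlx3. The points share libraries and several are parts of 1 cartilage continuum, so these values only describe likeness. The genes most like Runx2 were Gpc1 (r = 0.85), Camk2g (0.83) and Ell (0.83), and those most like Sp7 were Bmp8a (0.91), 2810457G06Rik (0.91) and Eef1akmt3 (0.90). Dlx5 was most like Dlx6os1 (0.93), a transcript of the Dlx5 and Dlx6 locus, followed by Snai1 (0.90) and Nol3 (0.88). Dlx3 was most like Gm43403 (0.96), Gm49937 (0.94) and Gm50445 (0.94), Atf4 like Tgm2 (0.88), 1700025G04Rik (0.85) and Btg1 (0.85), and Msx2 like Anxa8 (0.87), Tcfl5 (0.86) and A630023A22Rik (0.85).

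Genes around the factors were described by lists, with the median change of each list beside that of all genes. The runt partners are Runx1, Runx3 and Cbfb, the subunit that stabilises runt proteins on DNA. Runx1 was higher in bone-forming cells than in Ibsp-high chondrocytes (log2 0.83 ± 0.20, n = 3, edgeR adjusted p = 0.00907) and the other 2 did not pass, a call lost without the library block (adjusted p = 0.0786). Against other gated cells Runx1 was higher (log2 0.78 ± 0.20, edgeR adjusted p = 0.0110, 0.118 without the block) and Runx3, a factor of lymphoid cells and cartilage, lower (log2 −1.75 ± 0.39, edgeR adjusted p = 0.00534). Runx3 was also lower in Ibsp-high chondrocytes than in other gated cells (log2 −2.70 ± 0.37, edgeR adjusted p = 7.12e-04).

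Of 5 further Dlx and Msx genes, 3 could be tested. Dlx6, the neighbour of Dlx5, was at 11.6 ± 2.23 CPM in bone-forming cells, 6.33 ± 3.71 CPM in Ibsp-high chondrocytes and 2.01 ± 1.28 CPM in other gated cells (n = 3 each), and all 3 comparisons passed (edgeR adjusted p = 0.0431, 2.14e-04 and 9.88e-04), the first of them not without the library block (adjusted p = 0.209). Msx1 was lower in bone-forming cells than in Ibsp-high chondrocytes (log2 −0.85 ± 0.29, edgeR adjusted p = 0.0459, 0.0523 without the block) and higher in the chondrocytes than in other gated cells (log2 1.05 ± 0.21, edgeR adjusted p = 0.00543). Dlx4 was higher in bone-forming than in other gated cells on 8 UMIs (log2 2.85 ± 0.79, edgeR adjusted p = 0.0158).

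Among 24 other positive regulators, 8 were higher and 5 lower in bone-forming cells than in Ibsp-high chondrocytes (median log2 0.25, all genes −0.30). Of all genes, 13.3% were higher and 22.7% lower, so the count of lower regulators was near that share. The counts were 13 and 8 when replicate 1 was left out, with 48.9% of all genes called in either direction. Without the library block they were 7 and 1, with 28.3% of all genes called. Vdr, the vitamin D receptor, Mef2c, a factor of bone and muscle, and Tcf7, which acts in Wnt signalling, were higher (log2 3.85, 1.73 and 3.59, edgeR adjusted p = 2.08e-05, 6.38e-05 and 2.34e-04). Cebpd, Foxo1, Cebpb and Lef1 were lower, by log2 −1.25, −1.31, −0.63 and −1.78 (edgeR adjusted p = 0.00219, 0.00775, 0.0194 and 0.0209), and without the block the calls of Foxo1, Cebpb and Lef1 were lost (adjusted p = 0.0584, 0.0914 and 0.145). Against other gated cells 9 were higher and 5 lower (median log2 0.37, all genes −0.38), where 14.5% of all genes were higher and 27.8% lower. Without replicate 1 the counts were 14 and 6, with 54.4% of all genes called in either direction. Mef2c, Vdr and Creb3l1, an activator of collagen genes, were among the higher ones (log2 3.13, 3.17 and 2.13, edgeR adjusted p = 3.01e-06, 3.08e-05 and 5.00e-04), and Fosl1 and Lef1 were lower (log2 −2.97 and −3.12, edgeR adjusted p = 9.00e-05 and 7.00e-04).

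Ibsp-high chondrocytes had 4 of these 24 regulators higher and 3 lower than other gated cells (median log2 0.11, all genes −0.01). With 10.9% of all genes higher and 13.9% lower, both counts were near the shares of all genes. Without replicate 1 they were 6 and 8, with 55.4% of all genes called in either direction. Without the library block they were 1 and 1, with 9.55% of all genes called. Mef2c (log2 1.39 ± 0.17, edgeR adjusted p = 3.80e-04) and the early response factors Fos (log2 1.07 ± 0.21, edgeR adjusted p = 0.00531) and Junb (log2 0.88 ± 0.18, edgeR adjusted p = 0.00694) were higher, the last 2 not without the block (adjusted p = 0.0563 and 0.100). Fosl1 was lower (log2 −1.96 ± 0.24, edgeR adjusted p = 3.92e-04), and so was Lef1 (log2 −1.35 ± 0.35, edgeR adjusted p = 0.0194, 0.133 without the block).

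Repressors of the osteoblast programme were called in both directions. Of 13 tested, 5 were higher and 3 lower in bone-forming cells than in Ibsp-high chondrocytes (median log2 −0.13, all genes −0.30). As 13.3% of all genes were higher and 22.7% lower, the count of lower repressors was near the share of all genes. Without the library block the counts were 3 and 3, with 28.3% of all genes called in either direction. Hdac5, a histone deacetylase that restrains Runx2, was at 73.1 ± 10.3 against 12.6 ± 2.92 CPM (log2 2.42 ± 0.21, n = 3, edgeR adjusted p = 2.73e-05), and Twist1, which blocks the DNA-binding domain of Runx2, at 269 ± 85.9 against 88.9 ± 2.43 CPM (log2 1.49 ± 0.23, edgeR adjusted p = 8.65e-04). Sox9, the master factor of cartilage, was lower at 134 ± 34.3 against 744 ± 71.3 CPM (log2 −2.75 ± 0.43, edgeR adjusted p = 8.65e-04), as was Id1 (log2 −2.29 ± 0.28, edgeR adjusted p = 1.86e-04). Against other gated cells 5 were also higher and 3 lower (median log2 −0.12, all genes −0.38), where 14.5% of all genes were higher and 27.8% lower. Pparg, the adipocyte factor, was among the lower ones, on 2 UMIs in all bone-forming cells (log2 −4.20 ± 0.84, edgeR adjusted p = 0.00292). In Ibsp-high chondrocytes against other gated cells 5 were higher and 2 lower (median log2 0.19, all genes −0.01), against 10.9% and 13.9% of all genes. Hes1 led the higher ones (log2 1.27 ± 0.21, edgeR adjusted p = 0.00208) and Hey1 the lower ones (log2 −2.24 ± 0.33, edgeR adjusted p = 0.00116).

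The matrix genes that Runx2 and Sp7 are known to activate were called in both directions between the 2 populations. All genes of this list were allowed to make clusters. Bglap, Bglap2, Bglap3, Col1a1, Col1a2, Ifitm5, Dmp1, Phex, Mepe and Sost were also markers that named the bone-forming cells. Ibsp chose the chondrocyte cluster. The values and counts of this list therefore describe the clusters and are no independent test. Of 17 tested, 8 were higher and 4 lower in bone-forming cells than in Ibsp-high chondrocytes (median log2 0.46, all genes −0.30). Over all genes 13.3% were higher and 22.7% lower, so the count of lower genes was near that share. Bglap, whose upstream sequence is printed above, was at 27628 ± 12348 against 264 ± 177 CPM (log2 6.66 ± 0.60, n = 3, edgeR adjusted p = 3.51e-05), with its near-identical copies Bglap2 and Bglap3 able to share reads. Dmp1, a mineral-binding protein, Col1a2, a chain of type I collagen, and Phex, a regulator of phosphate, were higher as well (log2 5.33, 3.46 and 3.76, edgeR adjusted p = 3.63e-05, 5.80e-05 and 5.23e-06). The 4 lower genes were Omd, Spp1 (osteopontin), Alpl (alkaline phosphatase) and Ibsp, by log2 −4.13, −1.62, −1.72 and −2.42 (edgeR adjusted p = 5.82e-05, 0.00304, 0.0265 and 0.0294), and the cluster had been chosen by its Ibsp. Ibsp-high chondrocytes had 10 of the 17 higher than other gated cells and none lower (median log2 2.00, all genes −0.01). The shares of all genes there were 10.9% higher and 13.9% lower. Without replicate 1 the count was 15, with 55.4% of all genes called in either direction, and without the library block 6, with 9.55%. Bone-forming cells had 10 higher and 1 lower than other gated cells (median log2 1.65, all genes −0.38), against 14.5% and 27.8% of all genes.

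Genes that Atf4 is known to activate were also allowed to make clusters, so their values describe the clusters and are no independent test. Of 21 tested, 11 were higher and 1 was lower in bone-forming cells than in Ibsp-high chondrocytes (median log2 1.15, all genes −0.30). Among all genes 13.3% were higher and 22.7% lower. Without replicate 1 the counts were 16 and 1, with 48.9% of all genes called in either direction. Without the library block they were 9 and 0, with 28.3% of all genes called. The Atf4 mRNA had a fitted difference of −0.46, and the activity of Atf4 was not tested. Aldh1l2, a mitochondrial enzyme of folate metabolism, was at 52.6 ± 4.08 against 1.39 ± 0.498 CPM (log2 5.05 ± 0.33, n = 3, edgeR adjusted p = 6.83e-06), and Nupr1, a stress-induced nuclear protein, at 2866 ± 198 against 409 ± 47.7 CPM (log2 2.65 ± 0.20, n = 3, edgeR adjusted p = 1.65e-05). Pck2 and Phgdh, enzymes of gluconeogenesis and serine synthesis, were higher too (log2 3.099 and 3.40, edgeR adjusted p = 5.63e-05 and 4.46e-04), and Cebpg, a partner of Atf4, was lower (log2 −0.70 ± 0.20, edgeR adjusted p = 0.0221, 0.0766 without the block).

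Against other gated cells 8 Atf4 targets were higher and 5 lower in bone-forming cells (median log2 0.09, all genes −0.38). The shares of all genes were 14.5% higher and 27.8% lower. Nupr1, Vldlr, Aldh1l2 and Ddit4 were higher (log2 3.09, 2.49, 2.83 and 1.83, edgeR adjusted p = 6.32e-06, 2.49e-05, 3.28e-05 and 1.37e-04). Asns, which makes asparagine, was lower (log2 −1.05 ± 0.32, edgeR adjusted p = 0.0224). In Ibsp-high chondrocytes against other gated cells 2 were higher and 11 lower (median log2 −0.92, all genes −0.01), against 10.9% and 13.9% of all genes. The lower ones included Phgdh (log2 −3.58 ± 0.39, edgeR adjusted p = 2.00e-04), Mthfd2 (log2 −1.73 ± 0.19, edgeR adjusted p = 2.27e-04) and Asns (log2 −2.22 ± 0.27, edgeR adjusted p = 3.45e-04).

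**Figure D5:**
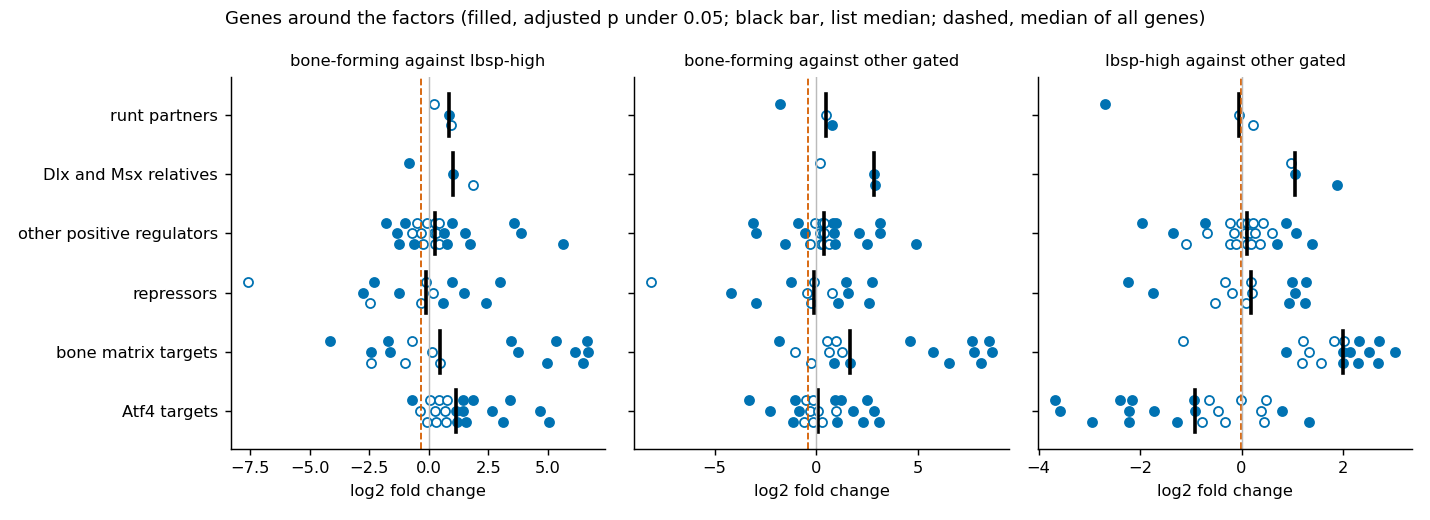
Fitted log2 fold change of every tested gene of the 6 lists (1 point a gene, filled where the edgeR adjusted p is under 0.05) in the 3 comparisons. Black bars are list medians and the dashed line is the median of all genes (−0.30, −0.38 and −0.01). Bone matrix targets spread widely in bone-forming cells against Ibsp-high chondrocytes, and the median of the Atf4 targets is 1.15 there and −0.92 in Ibsp-high chondrocytes against other gated cells.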

How the data were processed

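Droplet 3′ libraries (version 3.1 chemistry) of Alcam+ Sca-1- BLCs from WT mice were aligned by the authors to mm10 (GRCm38) with Cell Ranger (7.1.0, per the submitters' processing notes). The deposited files hold raw UMI counts per gene and called cell, whole numbers without normalization. Whether intronic reads were counted is not given in the sources used here. The study states a larger total of cells than the 20307 deposited barcodes, and its clusters were not used here.

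Cells under 200 detected genes or over 20% mitochondrial UMIs were dropped (79, 447 and 299 barcodes), and the highest Scrublet scores were removed as doublets, 0.8% per 1000 cells (51, 362 and 837 cells), since the automatic threshold marked only 42, 1 and 0. Counts scaled to 10000 per cell were log-transformed, and 2000 variable genes, 30 components and 15 neighbours gave Leiden clusters (scanpy 1.11.5, leidenalg 0.10.2) at resolution 1 for all cells and 0.5 for mesenchymal cells. Clusters were named from marker lists, and a cluster was left unnamed where fewer than 3 markers were detected, the leading genes spoke for another type or its markers averaged less than 1 log2 unit above the mean of all clusters, as in the 1 unnamed mesenchymal cluster. Osteoblast-like clusters were the bone-forming cells, and the chondrocyte-like cluster with the highest Ibsp gave the Ibsp-high chondrocytes.

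Counts summed per library and population (9 sums) were tested with edgeR (4.0.16): TMM scaling, filterByExpr, a quasi-likelihood fit with the library as a block, and Benjamini-Hochberg adjustment over 15072 genes. The 3 populations of a library come from the same cells sorted together, and their deviations from the population means correlated at 0.0579 to 0.245 within a library. The script was tested on simulated data. Levels are mean ± SD over libraries, and shares have exact Clopper-Pearson intervals, which like the floor of 3 counts cover counting error only. Named list genes were at most the 4 called genes with the smallest adjusted p in each direction, and 1 gene that this rule names is not reported here. Alternatives were DESeq2 (1.42.0), other scaling and filters, other clusterings, other reference cells and each library left out. The members and the gene lists were chosen with earlier results of these data known.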

Additional observations from a re-analysis of the deposited data

How the results depend on the processing

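The bone-forming cells were few in replicate 1, and Dlx3 and Msx2 counts were low outside and inside them. Both the Ibsp-high and the bone-forming cluster changed in size with the clustering. In replicate 1, resolution 1 for mesenchymal cells gave 10 Ibsp-high chondrocytes against 117 in the main setting. Bone-forming cells there numbered 103 against 32. Values of every comparison changed with the settings. Calls of Runx2, Sp7 and Dlx3 against Ibsp-high chondrocytes, of Sp7, Dlx3 and Dlx5 against other gated cells, and of Dlx5 in Ibsp-high chondrocytes were made under all 16 alternatives. Joining the 2 clusters highest in Ibsp and leaving out cells under 1000 UMIs were chosen after seeing the data. The causes of the changes below were not tested. In all, 222 of 288 fold changes of members, 90 of 108 levels, 33 of 36 shares and 6 of 12 thinned shares kept their direction and call or stayed within 1 SD. At resolution 1 for mesenchymal cells, bone-forming cells averaged 423 CPM for Runx2, 93.9 CPM for Sp7 and 55.5 CPM for Dlx3. The main setting gave 705, 154 and 118 CPM, so each fell by more than 1 SD. Levels of Dlx5, Atf4 and Msx2 in these cells stayed within 1 SD.

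Genes past the threshold between bone-forming cells and Ibsp-high chondrocytes numbered 5424, with 2115 at resolution 1 for mesenchymal cells and 1715 to 7427 when 1 library was left out. Between bone-forming and other gated cells they numbered 6368, with 2330 at resolution 1 and 1974 to 8267 when 1 library was left out. Between Ibsp-high chondrocytes and other gated cells they numbered 3733, with 1440 without the replicate block, 1349 at resolution 1, 2323 against mesenchymal cells only, 1754 against mesenchymal cells that were not cartilage, and 692 to 8426 when 1 library was left out (692 without replicate 2, 704 without replicate 3).

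Between bone-forming cells and Ibsp-high chondrocytes, the log2 change of Dlx5 (−0.19) turned to 0.0587 with no doublets removed, 0.15 at resolution 0.5 for all cells, 0.62 at resolution 1 and 0.27 with 2 Ibsp-high clusters, and ranged from −0.12 to 0.0661 when 1 library was left out. That of Atf4 (−0.46) was called at −1.02 with no cell filter, −0.56 with no doublets removed, −1.05 at resolution 0.5, −0.98 at resolution 1, −0.58 with the regulators allowed among the variable genes and −0.67 with 2 clusters. That of Msx2 (1.39) turned to −0.12 with no cell filter, −0.57 with no doublets removed, −0.86 at resolution 0.5 and −0.13 with 2 clusters, and ranged from 1.13 to 2.14 when 1 library was left out.

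Between bone-forming and other gated cells, the call of Runx2 (1.18) was lost at 1.00 with no doublets removed and 0.80 at resolution 1, and its value ranged from 1.08 to 1.63 when 1 library was left out. Atf4 (−0.27) turned to 0.10 under both of these settings. Msx2 (−0.08) turned to 0.26 without the replicate block, 0.074 with RLE size factors, 0.21 with DESeq2, 0.0503 with no cell filter, 0.27 at resolution 0.5, 0.24 at resolution 1 and 0.29 with 2 clusters, and ranged from −0.0356 to 0.17 when 1 library was left out.

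Between Ibsp-high chondrocytes and other gated cells, the call of Runx2 (−1.47) was lost at −1.33 without the replicate block, −0.99 with no cell filter and −0.36 against mesenchymal cells that were not cartilage, and its value ranged from −2.08 to −0.99 when 1 library was left out. Sp7 (−0.01) turned to 0.0123 without the block, 0.0117 with RLE size factors, 0.17 with DESeq2, 0.71 with no cell filter, 0.33 at resolution 0.5, 0.92 at resolution 1, 0.28 with the regulators allowed and 1.55 against mesenchymal cells that were not cartilage, and ranged from −0.55 to 0.51 when 1 library was left out. Dlx3 (−0.75) turned to 0.15 at resolution 0.5 and was called at −1.75 with no cell filter, −1.18 with the regulators allowed and −2.55 against mesenchymal cells that were not cartilage. Atf4 (0.19) was called at 0.81 with no cell filter, 0.66 with no doublets removed, 1.02 at resolution 0.5, 1.08 at resolution 1 and 0.63 with 2 clusters. Msx2 (−1.47) lost its call at −1.13 without the block, −1.40 with DESeq2 and −0.83 with the regulators allowed, turned to 0.17 with no cell filter, 0.49 with no doublets removed, 1.13 at resolution 0.5, 0.0675 at resolution 1 and 0.42 with 2 clusters, and ranged from −1.97 to −1.17 when 1 library was left out. The fit without the replicate block ended no other call of a member.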
